A study of Mus musculus with 7 samples.

Results

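The canonical Wnt pathway was followed here through 10 genes: the co-receptor Lrp6, the destruction complex genes Apc, Axin1, Axin2 and Gsk3b, the signal carrier Ctnnb1, and the DNA-binding factors Tcf7, Tcf7l1, Tcf7l2 and Lef1. They were taken by symbol from a table of 39179 gene IDs, and all 10 were found. The cells were LSK cells, the lineage-negative, Sca-1+ Kit+ fraction of bone marrow that holds blood stem cells and multipotent progenitors, sorted from C57/BL6 mice aged 7 weeks. The mutant mice were Jmjd1c f/f Vav1Cre (3 libraries, called Jmjd1c), which carry a floxed Jmjd1c gene, and the control mice carried Vav1Cre (4 libraries, called control), so the Cre transgene was present in both groups. The Vav1 promoter drives Cre throughout the blood system, so the gene is targeted in all blood cells and not in stem cells alone. JMJD1C is a relative of the histone lysine demethylases of the KDM3 family. Whether the libraries stem from separate animals is not stated. The p-values set each group difference against the variation between these libraries, and part of that variation may be technical.

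In the resting state of this pathway, a complex built on the scaffolds AXIN and APC lets GSK3 phosphorylate beta-catenin, which is then degraded. A Wnt ligand that binds a Frizzled receptor and its co-receptor LRP5 or LRP6 halts this, and beta-catenin enters the nucleus, where TCF and LEF factors carry it to target genes, Axin2 among them. In blood, TCF7 and LEF1 are best known from early T cells and, for LEF1, B cell precursors, and how much beta-catenin signal stem cells need has been debated.

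The libraries held 4303712 to 6436519 reads in genes. Values are normalized read counts, the deposited gene counts divided by a size factor for each library. Jmjd1c itself was 264 ± 26.3 normalized read counts in Jmjd1c libraries (SD, n = 3) and 488 ± 30.4 in control libraries (SD, n = 4), a log2 fold change of -0.89 ± 0.09 (SE; adjusted p in limma = 0.00407). The 12 LSK identity genes checked, among them Kit, Ly6a and Cd34, were all tested and none was called, and their summed values were 28366 to 31995 in Jmjd1c and 27570 to 31928 in control. Marker sums of NK and innate lymphoid cells were 1639 to 2257 in Jmjd1c and 1629 to 1989 in control. Erythroid sums were 1286 to 1558 in Jmjd1c and 1170 to 1794 in control. Stroma and endothelium sums were 1216 to 1328 in Jmjd1c and 1254 to 1487 in control. Marker sums of some other cells differed more. Basophil and mast cell markers summed to 2383 to 4774 in Jmjd1c and 5833 to 9003 in control. Plasma cell markers summed to 3704 to 11936 in Jmjd1c and 9099 to 19131 in control. In each of these 2 lists 1 marker was called lower, of 6 and 7 tested, beside 0.289% of all tested genes. These were Prss34 (log2 fold change -1.12, adjusted p in limma = 0.0410) and Igha (-2.29, adjusted p in limma = 0.0376). No marker of the other lists was called. Macrophage markers summed to 2699 to 4544 in Jmjd1c, and to 11169 in control 4 against 2967 to 4271 in controls 1 to 3. Neutrophil sums were 6910 to 9928 in Jmjd1c and 9957 to 13392 in control, and B lineage sums 492 to 535 in Jmjd1c and 584 to 703 in control. Their part in the differences described below was not tested. In bulk samples, fewer cells of a type and less RNA per cell cannot be told apart.

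Of the 10 genes, 9 passed the filter for testing (10 or more normalized read counts in 3 or more of the libraries), and 0 of these 9 differed between the groups after adjustment over all 12813 tested genes (limma, threshold 0.05). Over all tested genes 1.80% were called, which is 231 genes, and 3 to 624 when single libraries were left out. At an unadjusted p under 0.05 there were 2 of the 9, Ctnnb1 and Tcf7, beside 19.7% of all tested genes. On the recovered reads edgeR called 0 of the 9, with 2 at an unadjusted p under 0.05. DESeq2 called 0 of the 7 for which it gave an adjusted p, with 1 at an unadjusted p under 0.05. The median log2 fold change of the 9 genes was -0.04, and that of all tested genes -0.01. Groups did not overlap for 1 of the 9, Ctnnb1, as for 16.8% of all tested genes. Lef1 was the member below the filter.

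**Figure D1:**
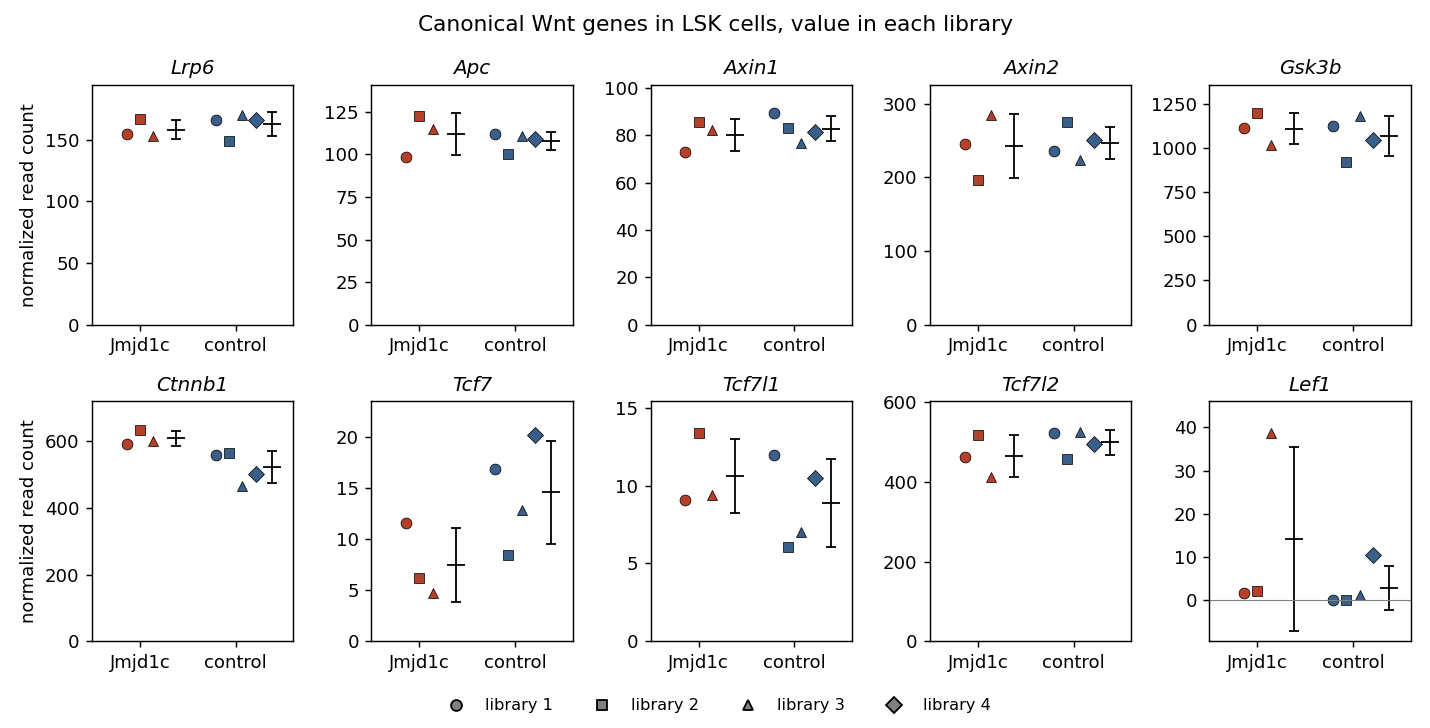
Normalized read counts (vertical axis, linear, a scale for each gene) of the 10 genes in each library of the Jmjd1c (red, n = 3) and control (blue, n = 4) groups, with group mean and SD as black bars. Ctnnb1 is the gene whose groups do not overlap, and Lef1 is near 0 except in Jmjd1c 3 at 38.7 and control 4 at 10.5.

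Promoter sequence is shown for Axin2 and for the windows of these genes that held the core of the TCF and LEF motif. The core of the TCF and LEF binding motif, CTTTGA, was searched on both strands in the 250 bases before each RefSeq start (GRCm38.p6). Windows were found for 7 of the 10 genes, and 13.8% of the 32851 windows searched hold the core. Of the 13 windows of these 7 genes, 2 held it: that of Gsk3b and that of a downstream start of Lef1. The windows of the other Lef1 starts, the most upstream start among them, did not. Axin2 is shown because its transcript is a common readout of the pathway, and its window held no match, which says only that these letters are not in these bases. The windows are chr11:108920099-108920348 for Axin2, chr16:38088751-38089000 for Gsk3b and chr3:131156044-131156293 for Lef1, all on the plus strand and without annotated exonic bases, and capitals mark the core, here as its reverse complement.
Axin2: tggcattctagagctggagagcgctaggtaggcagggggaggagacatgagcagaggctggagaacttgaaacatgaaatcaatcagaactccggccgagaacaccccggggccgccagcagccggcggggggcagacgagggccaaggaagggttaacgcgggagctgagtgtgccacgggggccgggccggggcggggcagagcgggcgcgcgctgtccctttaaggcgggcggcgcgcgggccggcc
Gsk3b: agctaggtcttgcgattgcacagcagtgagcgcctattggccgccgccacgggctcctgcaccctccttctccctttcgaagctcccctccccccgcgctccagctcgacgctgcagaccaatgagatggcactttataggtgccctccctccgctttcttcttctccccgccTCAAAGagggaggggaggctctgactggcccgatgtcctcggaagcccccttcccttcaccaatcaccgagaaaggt
Lef1: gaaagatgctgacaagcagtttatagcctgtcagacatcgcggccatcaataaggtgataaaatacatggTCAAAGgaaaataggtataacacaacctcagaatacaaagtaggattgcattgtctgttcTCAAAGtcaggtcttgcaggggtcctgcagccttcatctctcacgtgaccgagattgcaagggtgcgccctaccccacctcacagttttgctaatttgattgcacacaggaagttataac
The Gsk3b match begins 77 bases before the start. A match is a description of the letters and not a site shown to be bound.

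Lrp6 (chromosome 6, 134446476 to 134566965, minus strand) encodes the co-receptor that binds AXIN when a Wnt signal arrives. It had 155, 167 and 153 normalized read counts in Jmjd1c libraries and 166, 148, 170 and 166 in control libraries. The groups overlapped, with means of 158 ± 7.72 in Jmjd1c and 163 ± 9.65 in control (SD), and the log2 fold change was -0.04 ± 0.10 (SE; adjusted p in limma = 0.863). The 95% interval of the difference ran from 0.834-fold to 1.14-fold, and with single libraries left out the log2 fold change was -0.082 to -0.015.

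The destruction complex genes stayed close between the groups. Apc (chromosome 18, 34220924 to 34322552, plus strand) encodes the large scaffold that binds beta-catenin. It had 98.5, 123 and 115 normalized read counts in Jmjd1c and 112, 100.2, 111 and 109 in control, and the Jmjd1c libraries lay on both sides of the control range. Its log2 fold change was 0.05 ± 0.12 (adjusted p in limma = 0.864; 95% interval 0.856-fold to 1.25-fold). Axin1 (chromosome 17, 26138688 to 26195811, plus strand), the scaffold that is present without a signal, had 72.8, 85.5 and 82.2 in Jmjd1c and 89.6, 83.3, 76.9 and 81.3 in control. Its groups overlapped too, with a log2 fold change of -0.05 ± 0.13 (adjusted p in limma = 0.878; 95% interval 0.790-fold to 1.19-fold).

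Axin2 (chromosome 11, 108920349 to 108950783, plus strand) is both a part of the destruction complex and a target of the pathway, through which the signal limits itself. It had 246, 197 and 284 normalized read counts in Jmjd1c and 236, 275, 224 and 250.1 in control. The lowest and the highest value of all 7 libraries were both in the Jmjd1c group. The means were 242 ± 43.8 in Jmjd1c and 246 ± 22.1 in control (SD), and the log2 fold change was -0.04 ± 0.13 (adjusted p in limma = 0.904). The 95% interval of the difference ran from -0.31 to 0.24 on the log2 scale. Without Jmjd1c 2 the log2 fold change was 0.11, without control 2 it was 0.019, and neither was called.

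Gsk3b (chromosome 16, 38089001 to 38246084, plus strand), the kinase that marks beta-catenin for degradation, had the most reads of the 10 genes. It had 1111, 1194 and 1018 normalized read counts in Jmjd1c and 1122, 918, 1178 and 1047 in control. Its groups overlapped, with a log2 fold change of 0.06 ± 0.09 (adjusted p in limma = 0.759; 95% interval 0.908-fold to 1.19-fold).

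Ctnnb1 (chromosome 9, 120929216 to 120960507, plus strand) encodes beta-catenin itself, which carries the signal to the nucleus and also links cadherins to actin. It had 592, 634 and 601 normalized read counts in Jmjd1c and 558, 565, 465 and 503 in control. All 3 Jmjd1c libraries lay above all 4 control libraries, and the gap between the groups, 592 in Jmjd1c 1 against 565 in control 2, was smaller than the range within the control group. The means were 609 ± 22.1 in Jmjd1c and 523 ± 47.5 in control (SD). The log2 fold change was 0.22 ± 0.08, or 1.17-fold (95% interval 1.03-fold to 1.32-fold), which did not pass over all genes (adjusted p in limma = 0.174). Under every alternative run its value lay between 0.17 and 0.26 on the log2 scale, and the adjusted p between 0.148 and 0.425. Of its exonic bases, 14.6% also lie in exons of Ulk4 on the opposite strand. Ulk4 had 145 to 160 in Jmjd1c and 157 to 168 in control, and as the strand setting of the counting is not known, reads there cannot be assigned to either gene with certainty.

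The genes with the profile most like that of Ctnnb1 across the 7 libraries, by the root mean square difference of centred log2 values, were Rbl1 (0.0277), Tamm41 (0.0329) and Hspa9 (0.0378), where the median over all tested genes was 0.227. Rbl1, which encodes the pocket protein p107, had a log2 fold change of 0.20 (adjusted p in limma = 0.212). Tamm41, a mitochondrial enzyme of cardiolipin synthesis, had 0.28 (adjusted p = 0.164), and Hspa9, the mitochondrial chaperone mortalin, had 0.21 (adjusted p = 0.179). They were picked out of all tested genes for this likeness, so their shared order of libraries is a description.

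Among the TCF and LEF factors, Tcf7l2 had most of the reads per kilobase in every library. Per kilobase of exon it made up 84.5% to 90.8% of the summed level of the 4 genes in Jmjd1c and 83.0% to 91.6% in control. Tcf7 held 3.22% to 7.40% in Jmjd1c and 5.66% to 11.3% in control, and Tcf7l1 3.89% to 5.26% in Jmjd1c and 2.67% to 4.44% in control. Lef1 held 0.316% to 7.94% in Jmjd1c, highest in Jmjd1c 3, and 0% to 1.76% in control. With the length of the longest transcript in place of all exons, the share of Tcf7l2 was 87.7% to 94.9% in Jmjd1c and 90.2% to 95.8% in control.

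Tcf7l2 (chromosome 19, 55741820 to 55933654, plus strand), the factor that mediates Wnt signals in the gut epithelium, had 463, 517 and 412 normalized read counts in Jmjd1c and 522, 457, 526 and 494 in control. The groups overlapped, and the log2 fold change was -0.11 ± 0.09 (adjusted p in limma = 0.525; 95% interval 0.807-fold to 1.06-fold). It was -0.028 without Jmjd1c 3 and -0.19 without Jmjd1c 2. Tcf7l1 (chromosome 6, 72626378 to 72789254, minus strand), which acts mostly as a repressor, was near the filter with 9.10, 13.4 and 9.39 in Jmjd1c and 12, 6.03, 6.99 and 10.5 in control. With 70 recovered reads in all 7 libraries its log2 fold change of 0.26 ± 0.36 was poorly fixed (adjusted p in limma = 0.718; 95% interval 0.699-fold to 2.06-fold). It was 0.031 with GC content and gene length corrected, and 0.098 to 0.41 with single libraries left out.

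Tcf7 (chromosome 11, 52252371 to 52283014, minus strand) encodes TCF1, a factor of T cell commitment that is also made in stem and progenitor cells. It had 11.6, 6.18 and 4.70 normalized read counts in Jmjd1c and 16.8, 8.45, 12.8 and 20.1 in control. Jmjd1c 2 and 3 lay below all control libraries, while Jmjd1c 1 lay within their range. The means were 7.49 ± 3.62 in Jmjd1c and 14.5 ± 5.04 in control (SD), from 24 and 62 recovered reads. The log2 fold change was -0.89 ± 0.40 (95% interval 0.295-fold to 0.985-fold) and did not pass over all genes (adjusted p in limma = 0.243). With a pseudocount of 10 it was -0.49, since the gene is low. Of the 14 T cell markers 6 were tested and 0 called, and they summed to 551 to 694 in Jmjd1c and 594 to 772 in control. Most of that sum was Lat, with 397 to 471 in Jmjd1c and 374 to 412 in control. The T cell receptor gene Trbc1, below the filter and so not tested, had 7.45, 5.15 and 0 in Jmjd1c and 12, 16.9, 8.16 and 9.62 in control. Its groups did not overlap, which held for no other of the 14 markers and for 16.8% of all tested genes. Means of Cd3g, Cd247, Bcl11b, Lat and Cd6 were higher in Jmjd1c, and those of the other T cell markers were lower. Cd4 had 75.3, 50.5 and 38.7 in Jmjd1c and 72.0, 90.5, 61.8 and 195 in control, a log2 fold change of -0.82 ± 0.35 that did not pass (adjusted p in limma = 0.222). Cd3e had 4.96, 7.21 and 0 in Jmjd1c and 3.20, 6.03, 2.33 and 10.5 in control. Their part in the Tcf7 values was not tested.

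Lef1 (chromosome 3, 131110471 to 131224356, plus strand), the relative of Tcf7 best known from lymphocyte precursors, was nearly silent except in 2 libraries. It had 1.65, 2.06 and 38.7 normalized read counts in Jmjd1c and 0, 0, 1.17 and 10.5 in control. Of 50 recovered reads, 33 were in Jmjd1c 3 and 12 in control 4, and the other 5 libraries held 0 to 2 each. Fitted without the filter on low values, its log2 fold change was 1.62 (adjusted p in limma = 0.501), and without Jmjd1c 3 it was 0.35 (adjusted p = 0.914). In Jmjd1c 3, the T cell genes Cd3e and Bcl11b were at 0 and 1.17 and the B cell genes Pax5 and Ebf1 at 0 and 1.17. The B lineage genes Cd79a and Cd22 were higher there, at 10.6 and 18.8, than in Jmjd1c 1 (4.14 and 12.4) and Jmjd1c 2 (6.18 and 11.3). The plasma cell sum was 11936 in Jmjd1c 3, against 4911 in Jmjd1c 1 and 3704 in Jmjd1c 2. It was 12794, 11406.5 and 19131 in controls 1 to 3, where Lef1 was 0, 0 and 1.17, and 9099 in control 4. In control 4, the values were 10.5 for Cd3e, 6.12 for Bcl11b, 0 for Pax5 and 7.0 for Ebf1, and Cd4 stood at 195, against 61.8 to 90.5 in the other control libraries. The part of these markers in the Lef1 values was not tested. The antisense gene Gm43352, which covers 13.7% of the exonic bases of Lef1, was not analysed here.

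**Figure D2:**
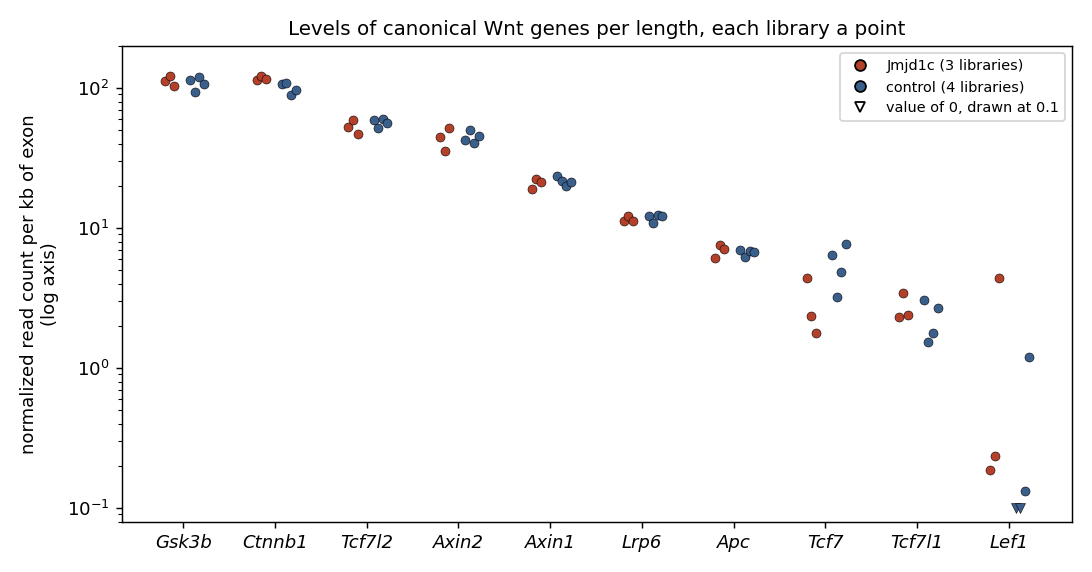
Normalized read count per kilobase of exon (vertical axis, log scale) of the 10 genes, ordered by their mean over 7 libraries, with Jmjd1c libraries in red (n = 3) and control libraries in blue (n = 4); triangles at the bottom mark values of 0. Levels run from 110.3 for Gsk3b to 0.880 for Lef1, and the spread between libraries is widest at the low end.

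Ordered by level per kilobase of exon, averaged over all 7 libraries, the genes ran Gsk3b (110.3), Ctnnb1 (108), Tcf7l2 (55.2), Axin2 (44.4), Axin1 (21.3), Lrp6 (11.8), Apc (6.81), Tcf7 (4.39), Tcf7l1 (2.45) and Lef1 (0.880). Gsk3b and Ctnnb1 overlapped in their ranges over libraries, as did Tcf7l2 and Axin2, and neighbours from Apc down to Lef1. The steps from Ctnnb1 to Tcf7l2, Axin2 to Axin1, Axin1 to Lrp6 and Lrp6 to Apc were wider than the spread between libraries. Axin2 was thus above Axin1 in each library, at 35.7 to 51.6 in Jmjd1c and 40.6 to 49.98 in control, against 19.0 to 22.3 in Jmjd1c and 20.1 to 23.4 in control for Axin1. With the longest transcript as the length, Ctnnb1 (154) came before Gsk3b (131) and Tcf7l2 (130), whose ranges overlapped, and the rest kept their order.

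**Figure D3:**
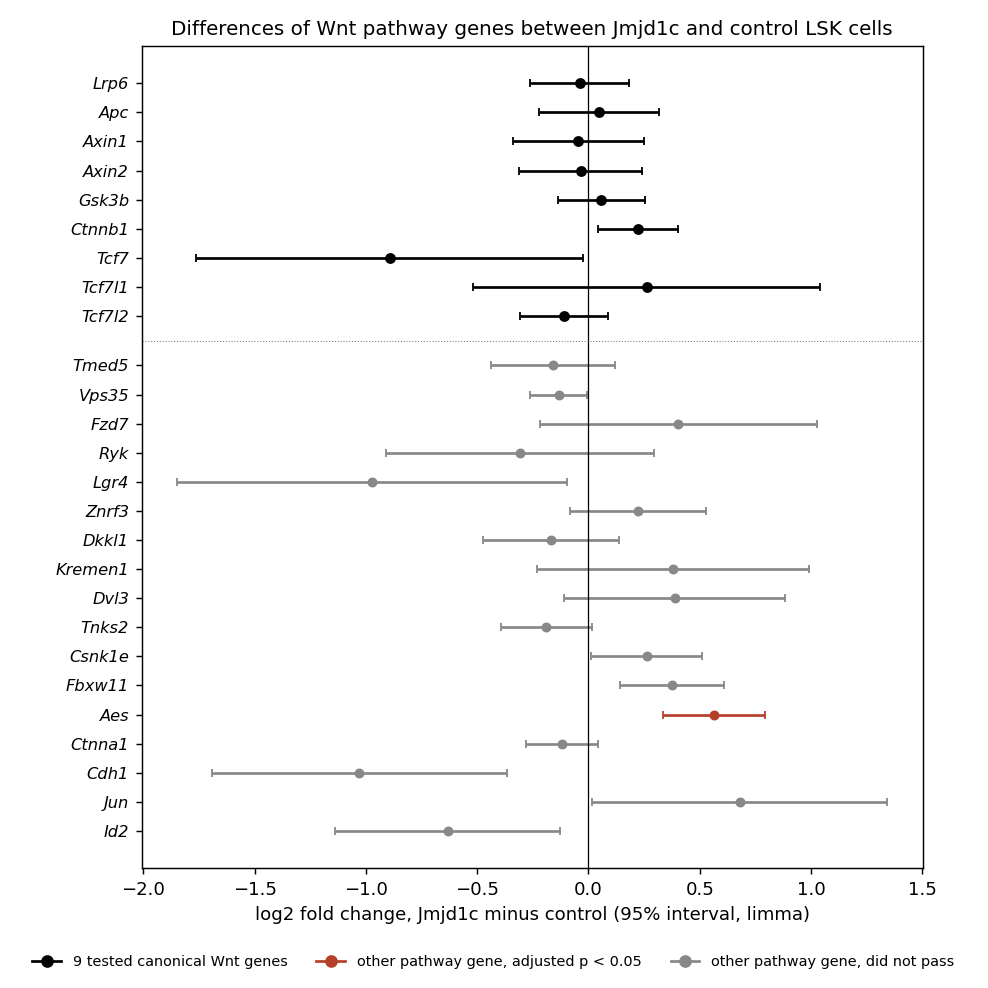
Log2 fold change, Jmjd1c minus control (horizontal axis, log2(value + 1) scale), with 95% intervals from limma for the 9 tested canonical Wnt genes (black, top) and 17 other pathway genes (below the dotted line). Intervals of Lrp6, Apc, Axin1, Axin2, Gsk3b and Tcf7l2 lie around 0, as does the wide interval of Tcf7l1 (-0.52 to 1.04). Those of Ctnnb1 (0.04 to 0.40) and Tcf7 (-1.76 to -0.02, also wide) leave out 0. The intervals are not adjusted over all genes, and neither of these genes passed the threshold. Aes (red, 0.57) is the gene that passed the threshold.

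The rest of the pathway was read from 10 lists with 140 further genes in the table, of which 70 passed the filter. In limma 1 of these 70 was higher in Jmjd1c after adjustment over all genes, 0 were lower and 69 did not pass, against 1.51% of all tested genes called higher and 0.289% called lower. At an unadjusted p under 0.05 there were 12 of 70, beside 19.7% of all tested genes. The median log2 fold change of the 70 was 0.04. Groups did not overlap for 7 of the 70, beside 16.8% of all tested genes.

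Ligands were close to absent from LSK cells of both groups. None of 19 Wnt genes passed the filter, 7 of them had no read in any library, and the 19 summed to 12.4 to 21.1 normalized read counts in Jmjd1c and 12.2 to 23.3 in control. Wnt7b had the most, with 48 of the 122 recovered reads. Of 4 genes for making and releasing ligands 3 were tested and none passed. Vps35, a subunit of the retromer that recycles the Wnt carrier protein Wls, had a log2 fold change of -0.13 ± 0.06 (adjusted p in limma = 0.238), with 2285, 2239 and 2131 in Jmjd1c and 2491, 2489, 2293 and 2462 in control. Tmed5, a cargo adaptor of the secretory pathway, had -0.16 ± 0.13 (adjusted p = 0.510). With GC content and gene length corrected, Vps35 had -0.028 and Tmed5 had -0.012.

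Of 14 receptor genes 5 were tested and none passed. Fzd6, the most abundant Frizzled gene by reads, had 101 to 113 normalized read counts in Jmjd1c and 89.7 to 130 in control. Fzd7, another Frizzled receptor, had a log2 fold change of 0.40 ± 0.28 (adjusted p in limma = 0.454), and Ryk, a co-receptor of kinase type, had -0.31 ± 0.28 (adjusted p = 0.569). Fzd7 had 0.25 without control 1. In the R-spondin arm, through which R-spondins keep Frizzled receptors on the surface, 2 of 9 genes were tested. The ubiquitin ligase Znrf3, which removes Frizzled receptors and is itself a Wnt target, had 241, 264 and 209 in Jmjd1c and 222, 157, 233 and 209 in control (log2 fold change 0.22 ± 0.14; limma adjusted p = 0.402), and 0.099 without control 2. The R-spondin receptor Lgr4 had 16.5, 6.18 and 4.70 in Jmjd1c and 13.6, 14.5, 19.8 and 19.2 in control, a log2 fold change of -0.97 ± 0.40 that did not pass (adjusted p in limma = 0.212). Without Jmjd1c 1 it was -1.46 and passed (adjusted p = 0.0471), and without Jmjd1c 3 it was -0.65. Of 17 genes listed as secreted and surface antagonists 2 were tested and none passed. Kremen1, which helps Dickkopf proteins take LRP5 and LRP6 off the surface, had 0.38 ± 0.28 (adjusted p in limma = 0.471). It was 0.15 without Jmjd1c 2 and 0.24 without control 3. The Dickkopf-like gene Dkkl1 had -0.17 ± 0.14 (adjusted p in limma = 0.538).

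Of 16 genes of the cytoplasmic relay 10 were tested and none passed. Tnks2, a tankyrase that marks AXIN for degradation, had a log2 fold change of -0.19 ± 0.09 (adjusted p in limma = 0.290), and Dvl3, a Dishevelled protein that recruits AXIN to the receptor, had 0.39 ± 0.23 (adjusted p = 0.367). Of 17 genes of beta-catenin turnover 15 were tested and none passed (median 0.04). Fbxw11, a ubiquitin ligase subunit that recognises phosphorylated beta-catenin, had 245, 302 and 324 normalized read counts in Jmjd1c and 207, 235, 220 and 226 in control. All Jmjd1c libraries lay above all control libraries, and the log2 fold change of 0.37 ± 0.11 did not pass (adjusted p in limma = 0.0937). Without Jmjd1c 1 it was 0.49 and passed (adjusted p = 0.0249). Csnk1e, a casein kinase that acts on Dishevelled and LRP6, had 0.26 ± 0.11 (adjusted p = 0.232). With GC content and gene length corrected, Csnk1e had 0.078 and Dvl3 had 0.24.

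**Figure D4:**
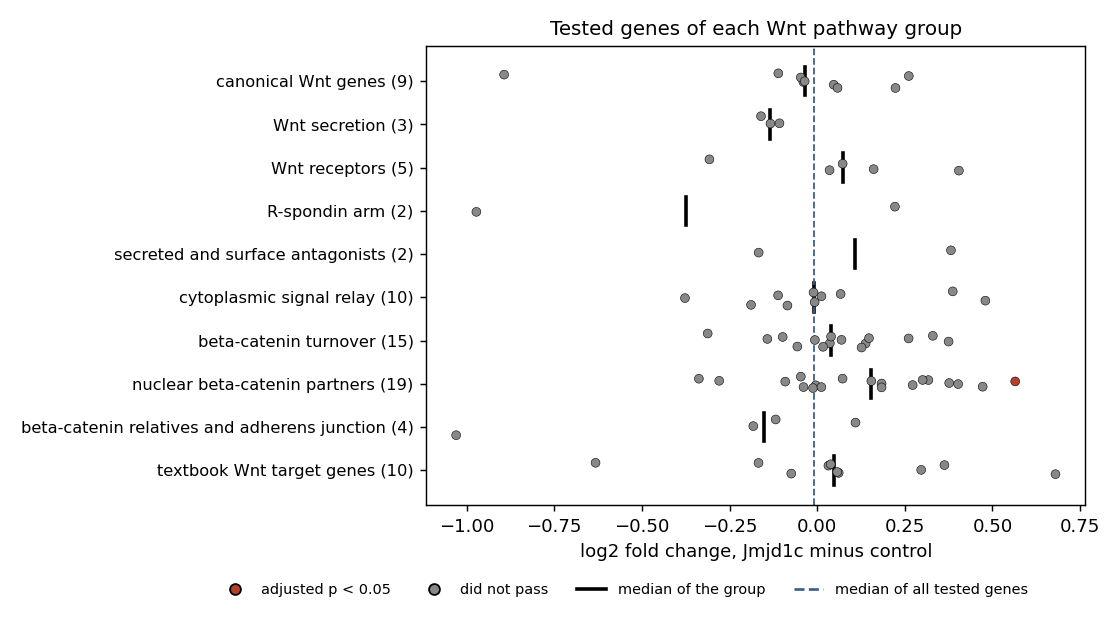
Log2 fold change, Jmjd1c minus control (horizontal axis), of each tested gene (points) by pathway group, with the number tested in brackets, the group median as a black bar and the median of all tested genes (-0.01) as a dashed line; vertical scatter within a row has no meaning. The red point is Aes, and 12 of the 19 tested nuclear partners lie above 0, as do 6208 of all 12813 tested genes.

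The gene that passed stood among the nuclear partners of beta-catenin. Of 20 such genes 19 were tested, 1 rose, 0 fell and 18 did not pass, with a median log2 fold change of 0.15. Aes (chromosome 10, 81559488 to 81566362), a short relative of the Groucho corepressors that bind TCF factors, had 298, 320.5 and 345 normalized read counts in Jmjd1c and 218, 251, 204 and 197 in control. All 3 Jmjd1c libraries lay above all 4 control libraries, with means of 321 ± 23.7 in Jmjd1c and 217 ± 24.1 in control (SD). It rose by 0.57 ± 0.10 on the log2 scale (95% interval 0.34 to 0.79; adjusted p in limma = 0.0343). The call did not hold in limma without an intensity trend (adjusted p = 0.147), with GC content and gene length corrected (0.40, adjusted p = 0.0804), or without Jmjd1c 2 (adjusted p = 0.175), Jmjd1c 3 (0.121), control 1 (0.0552), control 2 (0.0570) or control 3 (0.105). With single libraries left out the log2 fold change stayed between 0.51 and 0.64. Hipk2, a kinase that acts on TCF factors, had 172, 182 and 187 in Jmjd1c and 146, 128, 114 and 133 in control, a log2 fold change of 0.47 ± 0.11 that did not pass (adjusted p in limma = 0.0570).

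Of 7 relatives and junction partners of beta-catenin 4 were tested and none passed. Cdh1, the cadherin that holds beta-catenin at the membrane, had 61.2, 67.0 and 24.7 normalized read counts in Jmjd1c and 99.2, 83.3, 127 and 82.2 in control. All Jmjd1c libraries lay below all control libraries, and the log2 fold change of -1.03 ± 0.30 did not pass in limma (adjusted p = 0.1002), while DESeq2 gave -0.93 and an adjusted p of 0.0244. It was -0.58 without Jmjd1c 3. Sums of basophil and mast cell markers were also lower in each Jmjd1c library and lowest in Jmjd1c 3, at 2383, and their part in the Cdh1 values was not tested. Ctnna1, the link from beta-catenin to actin, had -0.12 ± 0.07 (adjusted p in limma = 0.398), and -0.042 without Jmjd1c 3.

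Of 17 textbook targets of the pathway 10 were tested and none passed (median 0.05). Myc had 3268, 3491 and 3133 normalized read counts in Jmjd1c and 3319, 3305, 2906 and 3379 in control, a log2 fold change of 0.03 ± 0.07 (adjusted p in limma = 0.832). Ccnd1, which encodes cyclin D1, had -0.07 ± 0.19 (adjusted p = 0.858). Jun, which also responds to stress and cell handling, had 164, 451 and 230 in Jmjd1c and 127, 174, 237 and 126 in control (0.68 ± 0.30; adjusted p = 0.243, and 0.28 without Jmjd1c 2). Id2, an inhibitor of E proteins, had 411, 259 and 248 in Jmjd1c and 366, 406, 415 and 739 in control (-0.63 ± 0.23; adjusted p = 0.169, and -0.41 without control 4). Control 4 was also the library with the highest macrophage marker sum, and whether the Id2 value moves with it was not tested.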

How the data were processed

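Bulk RNA-seq was measured in 7 libraries of sorted LSK cells, made with a low-input SMARTer kit, per the labels. The authors deposited a signal per gene for 39179 Ensembl IDs, which is a read count divided by a size factor for each library. Trim Galore 0.2.8, STAR, HTSeq 0.6.1p1, DESeq 1.18.0 and mm10 are named, per the submitters' processing notes; annotation release, strand setting and filters are not stated there. Dividing by the value of 1 read gave whole reads for 100% of values above 0 (tolerance 0.01).

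Symbols came from a reference table (37607 IDs matched), and positions and exonic lengths from GENCODE M21 (GRCm38, the assembly mm10 names). The fit was limma-trend (limma 3.58.1, R 4.3.3) on log2(value + 1) of the 12813 genes that reached 10 or more in 3 or more libraries, with Benjamini-Hochberg adjustment over all of them and a threshold of 0.05. Intervals cover 95%. The fit was tested on simulated data. Promoter windows of genes on chromosome 18, where Apc lies, were not searched. Alternatives were pseudocounts of 0.5 and 10, no filter, a filter at 50, TMM scaling, no intensity trend, edgeR 4.0.16 and DESeq2 1.42.0 on recovered reads, a replicate block, libraries 1 to 3 alone, a correction for GC content and length, and leaving out each library. The 10 genes and the lists were chosen with earlier results of these data known. The genes named from the lists are those past the threshold, or otherwise the 2 smallest p-values of a list; likeness was taken for the member with the smallest p-value, as none passed. Wnt7b, Fzd6, Hipk2, Myc, Ccnd1 and the single marker genes of other cells were added after their values were seen.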

Additional observations from a re-analysis of the deposited data

Results flagged for a closer look

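Dixon's test for a library far from the rest of its group was run on the 4 control libraries for 38 values, and 4 were beyond its critical value; chance alone marks about 1 group in 20. Lef1 was 10.5 normalized read counts in control 4 and 0 to 1.17 in the other controls. Id2 was 739 in control 4 and 366 to 415 in the others. Vps35 was 2293 in control 3, below the 2462 to 2491 of the others. The summed macrophage markers reached 11169 in control 4 and 2967 to 4271 in the others. The high value of Lef1 in Jmjd1c 3 could not be examined in this way, because the Jmjd1c group has 3 libraries.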

How the results depend on the processing

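None of the Wnt genes tested was called under any of the 18 alternatives. Tcf7 and Tcf7l1 were not among the 7 tested with a filter at 50 and had no adjusted p in DESeq2. Of the 160 values of the 9 genes, 155 kept their sign. The 5 that changed sign came from leaving out a library: the ranges over such fits were -0.020 to 0.14 for Apc, -0.094 to 0.020 for Axin1, -0.16 to 0.11 for Axin2 and -0.011 to 0.12 for Gsk3b. Outside these 9 genes, the Dickkopf-like gene Dkkl1 ranged from -0.28 to 0.017 over such fits. With GC content and gene length corrected, Axin1 had -0.20, Axin2 -0.15 and Kremen1 0.23. With a pseudocount of 10, Tcf7l1 had 0.13, Fzd7 0.25, Ryk -0.19 and Lgr4 -0.53. The count of other pathway genes called (1) was 0 without the intensity trend and with GC content and gene length corrected, 2 in DESeq2, and 0 to 3 when a library was left out. Over all genes, 231 were called (194 higher, 37 lower); the count was 0 without the intensity trend, with 2213 at an unadjusted p under 0.05 in limma, 590 in DESeq2, 40 with GC content and gene length corrected, and 3 to 624 when a library was left out (3 without Jmjd1c 2, control 2 or control 3, 9 without Jmjd1c 3, 68 without control 1, 624 without Jmjd1c 1). With the replicate number as a block, control 4 being left out, 16 genes, 0 other pathway genes and 0 Wnt genes were called, Aes having 0.52 (limma adjusted p = 0.119); same-numbered libraries deviated with correlations of -0.07 to -0.03, so the numbers give no pairing. The causes were not tested. With 3 and 4 libraries, and 50 to 86 reads for Lef1, Tcf7 and Tcf7l1, the low genes are the least precise.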

Other observations

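Of the 10 lists of other pathway genes, 3 had sums that did not overlap between the groups, 1 higher and 2 lower in Jmjd1c. How often sums of other gene lists separate in this way was not computed. For single genes, groups did not overlap for 16.8% of all tested genes. The 20 nuclear partners of beta-catenin summed to 3018 to 3202 normalized read counts in Jmjd1c libraries and 2721 to 2940 in control libraries. The 4 genes of Wnt secretion summed to 3240 to 3466 in Jmjd1c and 3559 to 3769 in control, and the 7 relatives and junction partners of beta-catenin to 1161 to 1305 in Jmjd1c and 1319 to 1377 in control. These sums weigh abundant genes most, and Vps35 makes up most of the sum of the secretion genes.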
